A study of Arabidopsis thaliana with 9 samples.

Results

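The dehydrin family of Arabidopsis thaliana was followed through maturing siliques, the seed pods with the seeds inside, as 10 genes picked by locus name from a table of 33602. They are RAB18 (AT5G66400), AT4G39130, XERO1 (AT3G50980), XERO2 (AT3G50970), AT2G21490, HIRD11 (AT1G54410), COR47 (AT1G20440), ERD10 (AT1G20450), ERD14 (AT1G76180) and AT4G38410, and the deposited descriptions name 9 of them as dehydrins and COR47 as a cold-regulated gene. Siliques were taken 12 days past anthesis from greenhouse plants of 3 kinds, with 3 libraries each that the labels call biological replicates. In the first kind, Napin:SCL15, the GRAS family regulator SCL15 is overexpressed in seeds, and the line is named after napin, whose promoter is active in maturing seeds. The labels do not say how many transgenic lines it stands for. The second, scl15, is a knockout whose allele they do not name, and the third is wild type (WT) of the Columbia background. SCL15 (AT4G36710) averaged 550.4 ± 21.8 TPM in Napin:SCL15, 5.84 ± 0.886 TPM in scl15 and 13.8 ± 2.78 TPM in WT (SD, n = 3 each), so its transcript was reduced but still measured in scl15. TPM are shares of a library's transcripts corrected for gene length and scaled to a fixed total, so levels of different genes can be set side by side. All 10 dehydrins passed the filter of 1 TPM on the mean over all libraries, above which 16555 genes were tested.

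Dehydrins are late embryogenesis abundant (LEA) proteins, disordered and strongly hydrophilic, and carry lysine-rich K-segments that can fold into helices on membrane surfaces. They accumulate in seeds during maturation drying, and in leaves and roots under drought, cold or abscisic acid (ABA), the hormone of seed maturation and water stress. In Arabidopsis RAB18 is the classic ABA-responsive dehydrin, XERO2 and COR47 are known from cold-treated plants, ERD10 and ERD14 were found as early responses to dehydration, and HIRD11 is a small histidine-rich member that binds metals. ABA-responsive bZIP factors such as ABI5 bind elements with an ACGTG core, the CBF and DREB factors of cold and drought bind CCGAC, and B3 factors such as ABI3 bind the RY element CATGCA.

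The family is spread over all 5 chromosomes in the TAIR10.1 annotation, with 2 tandem pairs. XERO2 (chromosome 3, 18940643 to 18941611) and XERO1 (18941925 to 18942940) lie 313 bases apart, and COR47 (chromosome 1, 7084409 to 7086873) and ERD10 (7087903 to 7089606) lie 1029 bases apart, each pair on 1 strand with no gene between. Also on chromosome 1 are HIRD11 (20309473 to 20310850) and ERD14 (28586663 to 28587931). AT2G21490 lies on chromosome 2 (9205990 to 9207125), AT4G38410 (17980678 to 17981766) and AT4G39130 (18228118 to 18228854) on chromosome 4, and RAB18 on chromosome 5 (26518277 to 26519447). RAB18 overlaps PLP3B (AT5G66410), on the other strand, by 11 bases. That neighbour averaged 4.69 ± 0.69 TPM in Napin:SCL15, 5.51 ± 1.24 TPM in scl15 and 6.09 ± 0.917 TPM in WT (SD, n = 3 each). The closest coding sequences were those of COR47 and ERD10, 73.5% identical with a longest shared stretch of 32 bases, so reads from that stretch may be shared between them.

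The 250 bases before each annotated start were searched on both strands for the 3 elements, with overlapping matches counted and CACGTG, which reads ACGTG on both strands, counted once. ACGTG was found before 7 of 10 dehydrin genes, against 22.9% of 27438 protein-coding genes. RAB18 held 3 such matches, AT4G38410 held 2, and AT4G39130, XERO1, AT2G21490, ERD14 and HIRD11 held 1 each. CCGAC was found before XERO2 and AT2G21490, against 12% of genes, and CATGCA before AT4G39130, AT2G21490 and COR47, against 8.43%. Shown first are the genes that were higher in Napin:SCL15 than in WT, with each matched element in capitals, 5′ to 3′ on the gene's strand, from the TAIR10.1 sequence of RefSeq. For RAB18, whose window lies inside the annotated gene PLP3B, only 25 bases around each match are given, 163, 111 and 17 bases before the start. The stretches of AT4G39130 and XERO2 are shortened to leave out a neighbouring gene.
RAB18, chr5:26519596-26519620, minus strand: acgacgatgtACGTGtgtatgaaaa
RAB18, chr5:26519544-26519568, minus strand: gaggagcattACGTGtcctgttagc
RAB18, chr5:26519451-26519475, minus strand: ttgatatgaaCACGTacttggtatc
AT4G39130, chr4:18228855-18229093, minus strand: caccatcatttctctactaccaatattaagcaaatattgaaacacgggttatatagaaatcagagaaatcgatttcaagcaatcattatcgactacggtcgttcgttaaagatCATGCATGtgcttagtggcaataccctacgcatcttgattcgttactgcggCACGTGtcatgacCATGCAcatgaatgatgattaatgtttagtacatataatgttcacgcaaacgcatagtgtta
XERO1, chr3:18941675-18941924, plus strand: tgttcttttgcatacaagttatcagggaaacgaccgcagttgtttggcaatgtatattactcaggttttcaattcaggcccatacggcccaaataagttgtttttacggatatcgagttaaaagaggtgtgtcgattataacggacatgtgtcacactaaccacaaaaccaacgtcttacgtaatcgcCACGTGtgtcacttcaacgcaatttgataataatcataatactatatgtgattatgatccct
AT2G21490, chr2:9207126-9207375, minus strand: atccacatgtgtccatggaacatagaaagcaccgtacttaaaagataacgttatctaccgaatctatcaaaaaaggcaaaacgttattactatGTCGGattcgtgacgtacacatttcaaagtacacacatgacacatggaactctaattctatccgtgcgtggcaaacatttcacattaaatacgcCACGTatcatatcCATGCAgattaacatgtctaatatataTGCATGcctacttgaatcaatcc
XERO2, which held 3 CCGAC matches and no ACGTG, and ERD10, whose window held none of the 3 elements, are also shown. ACGTG also stood before AT4G38410 and ERD14, which fell in Napin:SCL15 in deposited TPM, and before HIRD11, which was not called there. Every gene that rose in Napin:SCL15 held ACGTG in this window, and XERO2, ERD10 and COR47 did not. The part of the element in these differences was not tested.
XERO2, chr3:18940429-18940642, plus strand: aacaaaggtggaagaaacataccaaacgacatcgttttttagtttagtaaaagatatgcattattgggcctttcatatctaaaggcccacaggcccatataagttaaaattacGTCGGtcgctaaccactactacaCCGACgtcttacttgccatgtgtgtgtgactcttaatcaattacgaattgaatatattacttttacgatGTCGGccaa
ERD10, chr1:7089607-7089856, minus strand: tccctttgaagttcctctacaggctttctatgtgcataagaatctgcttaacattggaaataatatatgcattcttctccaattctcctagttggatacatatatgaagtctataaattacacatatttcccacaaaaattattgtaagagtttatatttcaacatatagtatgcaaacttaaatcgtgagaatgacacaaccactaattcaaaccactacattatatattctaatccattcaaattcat
In AT4G39130 the run CATGCATG holds 2 overlapping CATGCA matches, 1 on each strand. A match is a description of these letters, and binding was not measured. Sequence inside the transcripts or farther upstream was not searched, so a window without a match does not mean a gene without the element. The annotated transcripts of COR47 and ERD10 are 2320 and 1614 bases long, with coding sequences of 798 and 783 bases.

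Dehydrin transcripts were among the abundant RNAs of the silique. Their summed level was 6043, 7587 and 7526 TPM in Napin:SCL15 replicates 1 to 3, 2557, 2787 and 2648 TPM in scl15, and 4301, 5278 and 4103 TPM in WT. The 3 groups did not overlap, and the dehydrins made up 0.604% to 0.759% of all transcripts in Napin:SCL15, 0.256% to 0.279% in scl15 and 0.41% to 0.528% in WT. RAB18 ranked 31st, AT2G21490 65th and HIRD11 155th among all 33602 genes by mean WT level, while AT4G38410 ranked 11262nd. RAB18 led the family in Napin:SCL15 and in WT, but in scl15 it stood 3rd by mean, after AT2G21490 and HIRD11, and its range there overlapped that of HIRD11. Lower in the order, ERD14 and COR47 overlapped in each group, as did COR47 and ERD10 in Napin:SCL15 and scl15. The lowest pair was AT4G39130 above AT4G38410 in Napin:SCL15 and WT without overlap, and AT4G38410 above AT4G39130 in scl15 with overlapping ranges.

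**Figure D1:**
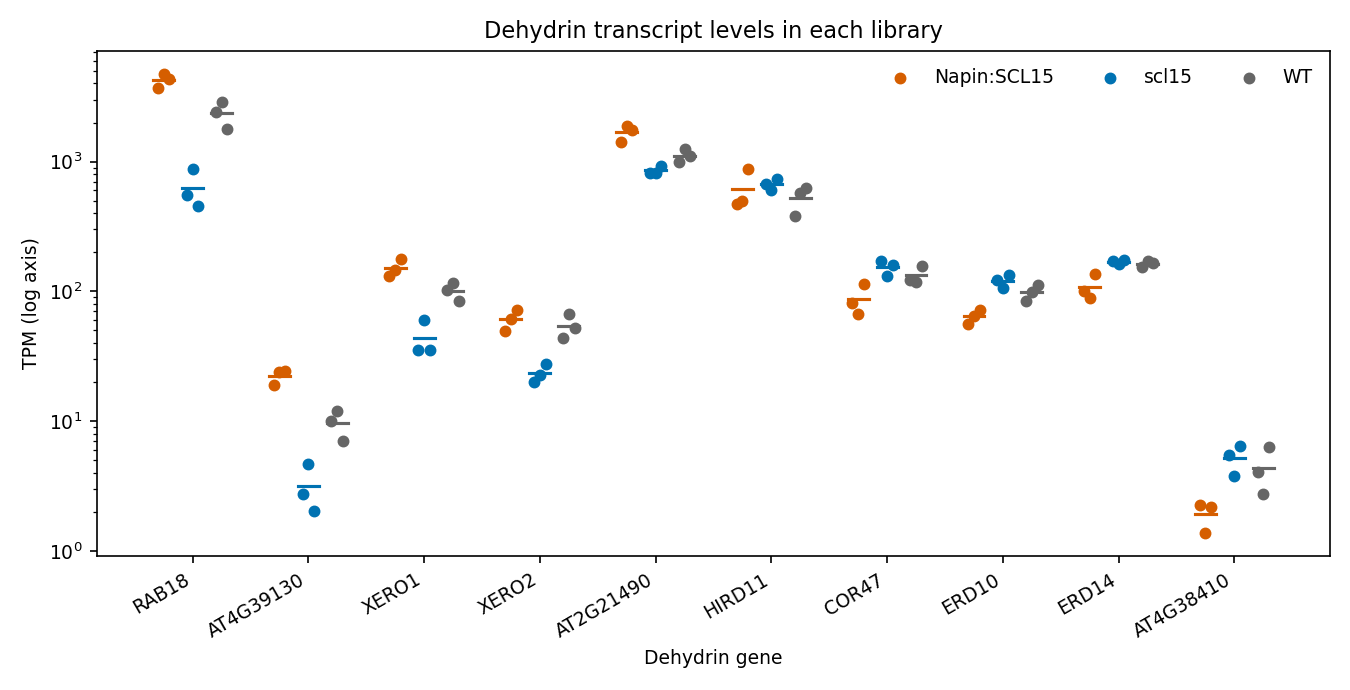
TPM of each dehydrin gene (log axis) in the 3 libraries of Napin:SCL15, scl15 and WT, with a bar at each mean. RAB18 lies between 3715 and 4755 TPM in Napin:SCL15 and between 453 and 869 TPM in scl15, while HIRD11 overlaps between all groups.

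Markers of seed and of other silique tissue also differed between the groups. For the counts below, 1.68% of all tested genes were called higher and 23.4% lower in Napin:SCL15. In scl15 these shares were 9.18% and 6.31%. The 8 photosynthesis genes on the list, which mark green tissue, all fell in Napin:SCL15 (3 of 8 with median-ratio scaling) and all rose in scl15, and their summed level was 5528 to 7455 TPM in Napin:SCL15, 19451 to 23635 TPM in scl15 and 10427 to 13217 TPM in WT. Of 13 storage protein genes, 4 rose in Napin:SCL15 and 1 fell in scl15, and of 6 oil body genes 1 rose in Napin:SCL15 and none was past the threshold in scl15 in limma, with 1 higher and 1 lower at an unadjusted p under 0.05. Oil body transcripts summed to 35797 to 38008 TPM in Napin:SCL15, 22637 to 27696 TPM in scl15 and 25934 to 30691 TPM in WT. The 8 silique wall genes summed to 517 to 616 TPM in Napin:SCL15, 514 to 764 TPM in scl15 and 717 to 1099 TPM in WT. Of them 4 fell in Napin:SCL15 (0 with median-ratio scaling), while in scl15 2 fell and 1 rose (3 and 0 with that scaling). The 6 seed coat genes, of which BAN and TT2 averaged under 1 TPM, summed to 26.9 to 30.3 TPM in Napin:SCL15, 47.7 to 56.3 TPM in scl15 and 31.7 to 44 TPM in WT. The 3 endosperm genes included AGL62 at under 1 TPM. They summed to 3746 to 8015 TPM in Napin:SCL15, 3017 to 3078 TPM in scl15 and 3754 to 6249 TPM in WT. EPR1 made up nearly all of that sum, at a mean of 5487 TPM in Napin:SCL15, 3039 TPM in scl15 and 4667 TPM in WT. PHE1 averaged 2.5, 5.26 and 3.38 TPM in the same order, with overlap between all groups. The part of these markers in the dehydrin differences was not tested, and in whole siliques fewer cells of a type and less RNA per cell cannot be told apart.

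Against WT, 4 of 10 dehydrins (RAB18, AT4G39130, XERO1 and AT2G21490) rose and 4 (COR47, ERD10, ERD14 and AT4G38410) fell in Napin:SCL15 in deposited TPM, while in scl15 4 (RAB18, AT4G39130, XERO1 and XERO2) fell and none rose in limma, with 1 higher at an unadjusted p under 0.05 (ERD10). Over all tested genes 1.68% were called higher and 23.4% lower in Napin:SCL15, and 9.18% were called higher and 6.31% lower in scl15. The family's median log2 difference was 0.18 in Napin:SCL15, against -0.28 over all genes, and -0.16 in scl15, against 0.10. Of all called genes, 6.7% were higher in Napin:SCL15 in deposited TPM, against 47.6% after median-ratio scaling, which divides each library by the median ratio of its genes to their geometric mean over libraries, and in scl15 the same shares were 59.2% and 43.4%. Both comparisons use the same WT libraries, so they are not independent.

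RAB18 was the dehydrin with the largest fall in scl15, and AT4G39130, annotated by the deposited description as a dehydrin family protein, the one with the largest rise in Napin:SCL15. RAB18 stood at 3715, 4755 and 4318 TPM in Napin:SCL15, at 550.1, 869 and 453 TPM in scl15 and at 2406, 2881 and 1798 TPM in WT. Every Napin:SCL15 library was above and every scl15 library below the WT range. The scl15 mean was 26.4% of the WT mean, with a difference of -1.95 on the log2(TPM + 1) scale (SE 0.23, adjusted p = 5.6e-05 in limma). In Napin:SCL15 the mean was 1.8 times that of WT, with a log2 difference of 0.87 (SE 0.23, adjusted p = 0.0143).

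AT4G39130 followed the same order at a far lower level. It stood at 18.9, 24.1 and 24.4 TPM in Napin:SCL15, at 2.74, 4.66 and 2.04 TPM in scl15 and at 10.04, 12 and 7 TPM in WT, again with no overlap between groups. Its log2 difference was -1.39 in scl15 (SE 0.23, adjusted p = 9.0e-04) and 1.15 in Napin:SCL15 (SE 0.23, adjusted p = 0.00391). Between the lines, mean TPM in Napin:SCL15 was 7.14 times that in scl15 for AT4G39130 and 6.83 times that in scl15 for RAB18. For AT4G39130 both calls against WT were kept in each of 19 other settings and for RAB18 the fall in scl15 was. The rise of RAB18 in Napin:SCL15 was not past the threshold without Napin:SCL15 replicate 2 (0.79, adjusted p = 0.0578), without WT replicate 3 (0.69, adjusted p = 0.06) or without the filter on low values (0.87, adjusted p = 0.0528).

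The tandem pair XERO1 and XERO2 fell together in scl15. XERO1, a small basic dehydrin, stood at 130.5, 146 and 179 TPM in Napin:SCL15, at 35.1, 59.9 and 35.1 TPM in scl15 and at 103, 117 and 84.0 TPM in WT. XERO2 stood at 49.4, 61.5 and 72.2 TPM in Napin:SCL15, at 19.9, 22.8 and 27.6 TPM in scl15 and at 43.8, 66.5 and 51.8 TPM in WT. All scl15 libraries were below all WT libraries for both genes, while for XERO2 the Napin:SCL15 and WT ranges overlapped. In scl15 the log2 difference from WT was -1.24 for XERO1 (SE 0.20, adjusted p = 6.6e-04) and -1.16 for XERO2 (SE 0.18, adjusted p = 4.7e-04). In Napin:SCL15 XERO1 rose by 0.58 (SE 0.20, adjusted p = 0.0451), a call that ended in 9 of 19 other settings, among them without WT replicate 3 (0.45, adjusted p = 0.152) and without Napin:SCL15 replicate 3 (0.46, adjusted p = 0.132). XERO2 had 0.18 there (95% interval -0.20 to 0.56, adjusted p = 0.475), and 0.50 with median-ratio scaling (adjusted p = 0.113). The ratio of XERO1 to XERO2 within a library, which scaling a library by 1 factor does not change, was 2.64, 2.38 and 2.49 in Napin:SCL15, 1.76, 2.62 and 1.27 in scl15 and 2.36, 1.76 and 1.62 in WT, with overlap between Napin:SCL15 and scl15 and between scl15 and WT.

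AT2G21490, listed under the name LEA and the second most abundant dehydrin in WT, rose in Napin:SCL15, while its call in scl15 depended on the setting and was not past the threshold in deposited TPM without a replicate block. It stood at 1418, 1883 and 1736 TPM in Napin:SCL15, at 812, 822 and 929 TPM in scl15 and at 995, 1241 and 1095 TPM in WT, with no overlap between any of the groups. The log2 difference from WT was 0.59 in Napin:SCL15 (SE 0.14, adjusted p = 0.00993) and -0.37 in scl15 (95% interval -0.68 to -0.07, adjusted p = 0.0954). Without WT replicate 1 the first had an adjusted p of 0.0501, and with quantile normalization the second became -0.52 (adjusted p = 0.0121). The ratio of RAB18 to AT2G21490 within a library was 2.62, 2.53 and 2.49 in Napin:SCL15, 0.677, 1.06 and 0.488 in scl15 and 2.42, 2.32 and 1.64 in WT. This proportion separated every scl15 library from the other 6.

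HIRD11 did not differ past the threshold in any comparison. Its levels were 469.8, 494 and 871 TPM in Napin:SCL15, 668, 605 and 728 TPM in scl15 and 379, 568 and 627 TPM in WT. The spread within Napin:SCL15 came from replicate 3, which was above every other library. The log2 difference from WT was 0.19 in Napin:SCL15 (95% interval -0.29 to 0.68, adjusted p = 0.539) and 0.37 in scl15 (95% interval -0.11 to 0.86, adjusted p = 0.31). The first turned to -0.09 without Napin:SCL15 replicate 3 and reached 0.52 at most in 19 other settings, none past the threshold.

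COR47, ERD10, ERD14 and AT4G38410 fell in Napin:SCL15 against WT in TPM as deposited, while RAB18, AT4G39130, XERO1 and AT2G21490 rose. COR47 stood at 80.8, 67.3 and 114 TPM in Napin:SCL15, at 171, 131 and 161 TPM in scl15 and at 122, 119 and 157 TPM in WT. ERD10, which binds membranes and acts as a chaperone in vitro, stood at 56.5, 65.1 and 72.4 TPM in Napin:SCL15, at 123, 107 and 133 TPM in scl15 and at 83.7, 99.6 and 112 TPM in WT. For both genes the Napin:SCL15 range lay below the others, and the scl15 and WT ranges overlapped. ERD14, a relative of ERD10 with the same kind of activity, stood at 101, 88.5 and 135 TPM in Napin:SCL15, at 170.1, 162 and 174 TPM in scl15 and at 154, 171 and 165 TPM in WT. AT4G38410, whose function is less known, stood at 2.25, 1.38 and 2.16 TPM in Napin:SCL15, at 5.45, 3.81 and 6.42 TPM in scl15 and at 4.03, 2.76 and 6.36 TPM in WT. These 2 showed the same arrangement, with Napin:SCL15 below and the other groups overlapping. The summed level of the 8 photosynthesis genes, given above, was likewise lowest in Napin:SCL15, and its part in these differences was not tested.

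In Napin:SCL15 the log2 difference from WT was -0.62 for COR47 (SE 0.18, adjusted p = 0.0244) and -0.60 for ERD10 (SE 0.14, adjusted p = 0.00844). ERD14 had -0.61 (SE 0.14, adjusted p = 0.00789) and AT4G38410 -0.84 (SE 0.25, adjusted p = 0.0264). The median of all tested genes was -0.28 in this comparison. Transcripts of 13 storage protein genes took up 40.9% to 45.5% of the fixed TPM total in Napin:SCL15, 32.2% to 33.1% in scl15 and 30.2% to 32% in WT. With median-ratio scaling, which set that median to -0.00, none of the 4 was past the threshold in limma at an adjusted p of 0.05, and 2 had an unadjusted p under 0.05. COR47 then had -0.29 (adjusted p = 0.346), ERD10 -0.27 (0.272), ERD14 -0.28 (0.225) and AT4G38410 -0.60 (0.169). The 4 rises were kept under the same scaling, with RAB18 at 1.2 (adjusted p = 0.00853), AT4G39130 at 1.47 (0.00194), XERO1 at 0.91 (0.0162) and AT2G21490 at 0.92 (0.00297). Quantile normalization and rescaling without storage protein genes also kept the 4 rises and none of the 4 falls. With TPM as deposited, COR47 was not past the threshold without Napin:SCL15 replicate 1 (-0.58, adjusted p = 0.0701), without Napin:SCL15 replicate 2 (-0.45, adjusted p = 0.11) or without WT replicate 3 (-0.49, adjusted p = 0.0944). AT4G38410 was not past without Napin:SCL15 replicate 2 (-0.69, adjusted p = 0.107), WT replicate 1 (-0.86, adjusted p = 0.0608) or WT replicate 3 (-0.58, adjusted p = 0.114).

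**Figure D2:**
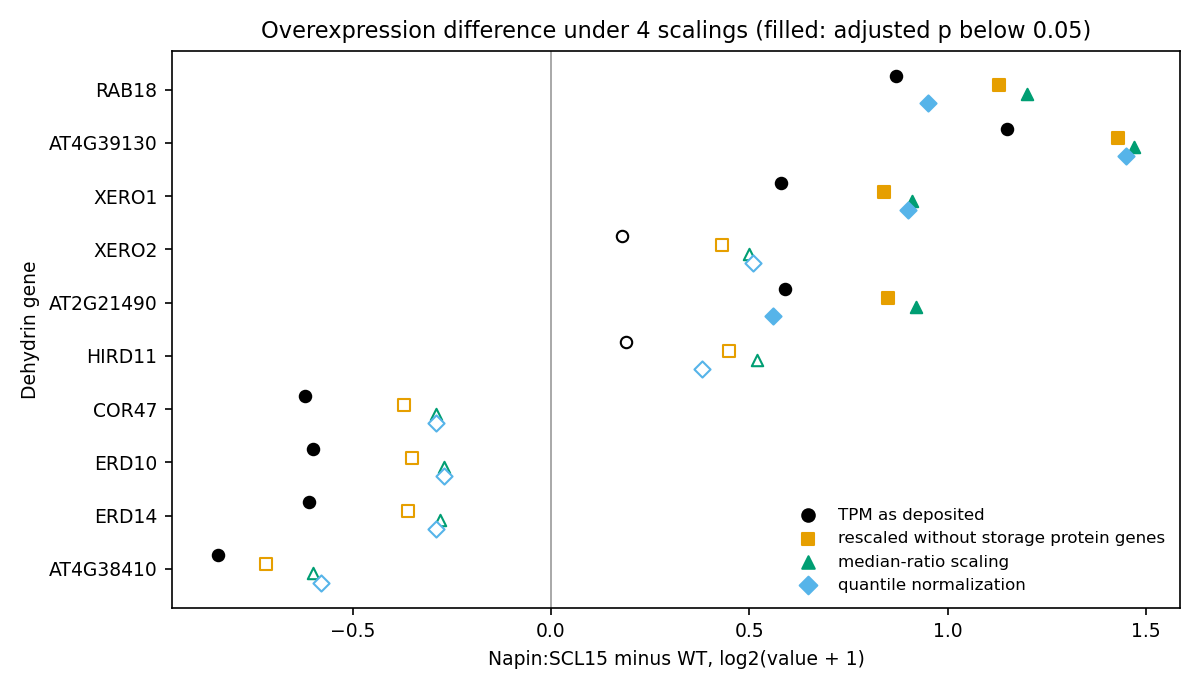
Difference between Napin:SCL15 and WT for each dehydrin, as log2(value + 1), with TPM as deposited and under 3 other scalings; filled symbols have an adjusted p below 0.05. RAB18, AT4G39130, XERO1 and AT2G21490 are filled under all 4, while COR47, ERD10, ERD14 and AT4G38410 are filled only with TPM as deposited.

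In scl15 none of these 4 was past the threshold against WT, with log2 differences of 0.22 for COR47 (95% interval -0.17 to 0.60), 0.30 for ERD10 (0.00 to 0.60), 0.05 for ERD14 (-0.26 to 0.35) and 0.24 for AT4G38410 (-0.29 to 0.78). Their adjusted p-values in limma were 0.479, 0.179, 0.871 and 0.577. ERD14 had -0.06 with median-ratio scaling, so its sign there rests on the scaling. Over all genes the median of this comparison was 0.10 in deposited TPM, against 0.01 after that scaling.

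Set directly against each other, the lines differed in 9 of 10 dehydrins, 5 of them higher and 4 lower in Napin:SCL15, where 49.2% of all genes were called, 6.16% higher and 43.1% lower. Of those called, 12.5% were higher with TPM as deposited and 47.9% with median-ratio scaling. The 5 higher ones were RAB18 (log2 difference 2.82, SE 0.23, adjusted p = 6.9e-07), AT4G39130 (2.54), XERO1 (1.82), XERO2 (1.34) and AT2G21490 (0.97), each kept in 19 other settings. The 4 lower ones were AT4G38410 (-1.08), ERD10 (-0.89), COR47 (-0.83) and ERD14 (-0.66). Over all genes the median was -0.38, and with median-ratio scaling, which brought it to -0.01, COR47 (-0.40, adjusted p = 0.087) and ERD14 (-0.22, adjusted p = 0.217) were no longer past the threshold. ERD10 and AT4G38410 were past it under every scaling tried. HIRD11 had -0.18 (95% interval -0.66 to 0.30) as deposited and 0.26 with median-ratio scaling.

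**Figure D3:**
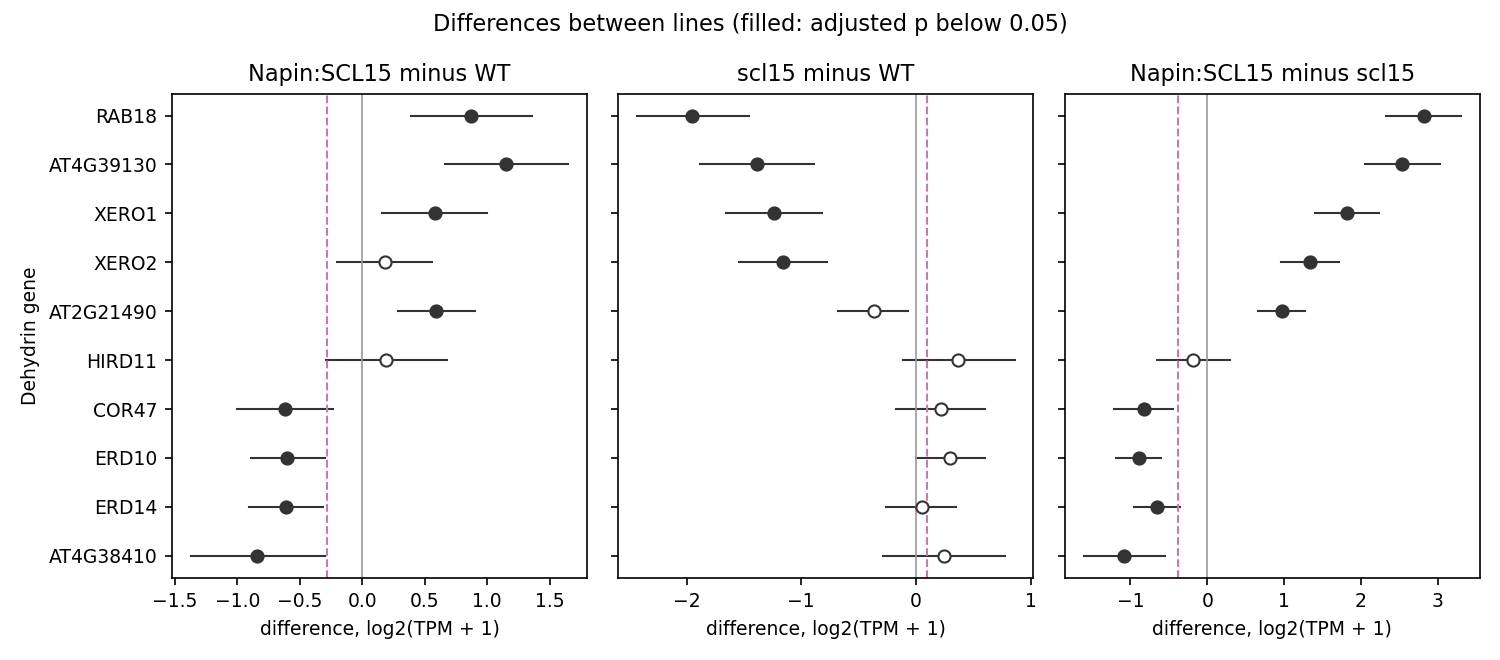
Difference on the log2(TPM + 1) scale with its 95% interval for each dehydrin in 3 comparisons, filled where the adjusted p is below 0.05; the dashed line is the median of all tested genes. RAB18, AT4G39130, XERO1 and XERO2 lie below 0 in scl15 minus WT, at -1.95 to -1.16, and the other 6 genes there are open symbols.

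The makeup of the dehydrin pool differed as well, and scaling a library by 1 factor does not change it. RAB18 made up 61.5%, 62.7% and 57.4% of summed dehydrin TPM in Napin:SCL15, 21.5%, 31.2% and 17.1% in scl15 and 55.9%, 54.6% and 43.8% in WT. COR47, ERD10, ERD14 and AT4G38410 together, a set chosen after their values were seen, made up 3.74% ± 0.72 in Napin:SCL15, 16.9% ± 2.11 in scl15 and 8.88% ± 1.69 in WT (SD, n = 3 each). That share also moves with the level of RAB18 in the pool. The set's own sum was 262 ± 54.4 TPM in Napin:SCL15, 449 ± 39.1 TPM in scl15 and 399 ± 39 TPM in WT, and the scl15 and WT ranges overlapped. Within a library RAB18 exceeded ERD14 36.8, 53.7 and 31.9 times in Napin:SCL15, 3.23, 5.36 and 2.61 times in scl15 and 15.6, 16.8 and 10.9 times in WT, with no overlap between groups. COR47 and ERD10, in tandem, kept close to a common proportion, with a ratio of 1.35 ± 0.281 in Napin:SCL15, 1.27 ± 0.0987 in scl15 and 1.35 ± 0.134 in WT. Without RAB18 the other 9 dehydrins summed to 2789 ± 442 TPM in Napin:SCL15, 2040.04 ± 141 TPM in scl15 and 2199 ± 268 TPM in WT, and the scl15 and WT ranges overlapped.

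**Figure D4:**
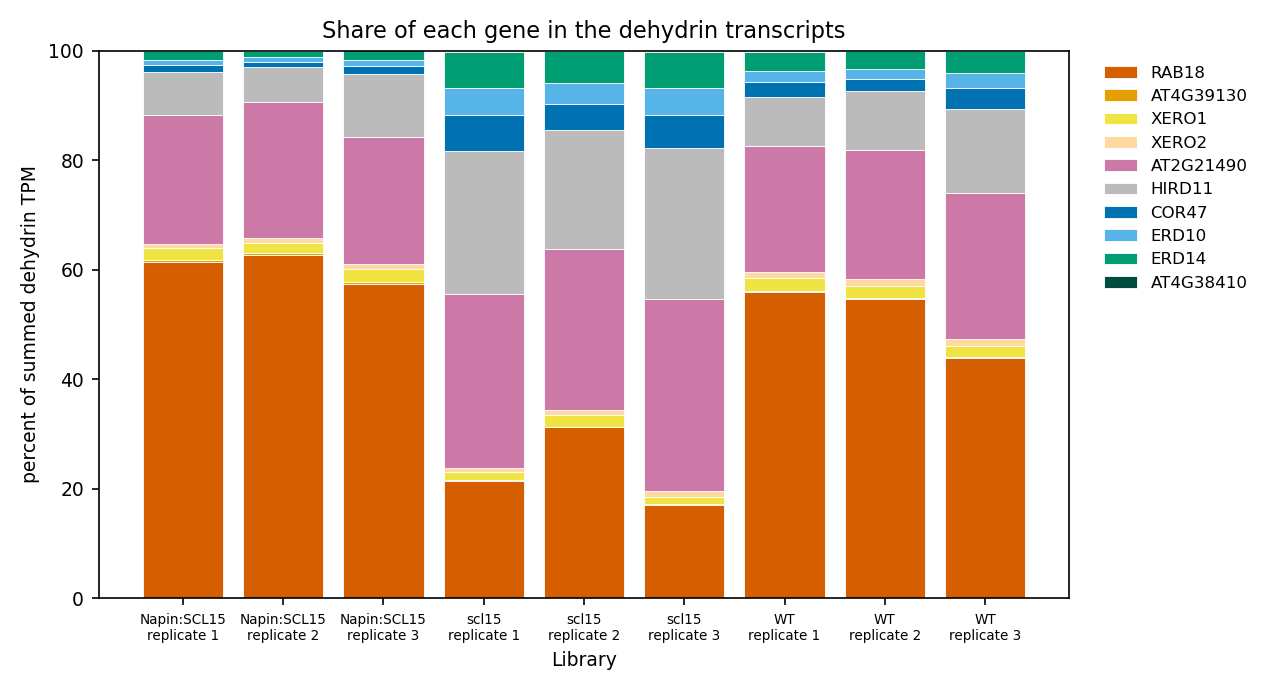
Percent of summed dehydrin TPM taken by each gene in each library. RAB18 takes 57.4% to 62.7% in Napin:SCL15, 17.1% to 31.2% in scl15 and 43.8% to 55.9% in WT.

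Translated from the TAIR10.1 coding sequences, the dehydrins fall into 2 kinds by acidic residues. Aspartate and glutamate made up 24.5% to 27.9% of residues in COR47, ERD10, ERD14, AT4G38410 and HIRD11, and 8.81% to 13.2% in XERO2, RAB18, XERO1, AT2G21490 and AT4G39130. The predicted isoelectric point was 4.75 for COR47, 5.12 for ERD10, 5.41 for ERD14, 5.88 for AT4G38410 and 6.67 for HIRD11. It was 6.09 for AT4G39130, 6.38 for AT2G21490, 7.10 for RAB18, 9.19 for XERO1 and 9.38 for XERO2. RAB18 was richest in glycine, at 33.9% of its 186 residues, and XERO2 and HIRD11 were richest in histidine, at 13.5% and 13.3%. Of the 5 dehydrins poor in acidic residues, all but XERO2 rose in Napin:SCL15 and all but AT2G21490, whose call there depended on the setting, fell in scl15. Of the 5 rich in them, none rose in either line, and 4 fell in Napin:SCL15 in deposited TPM, which median-ratio scaling brought to 0. With 10 related genes these are descriptions of the family and not a test.

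**Figure D5:**
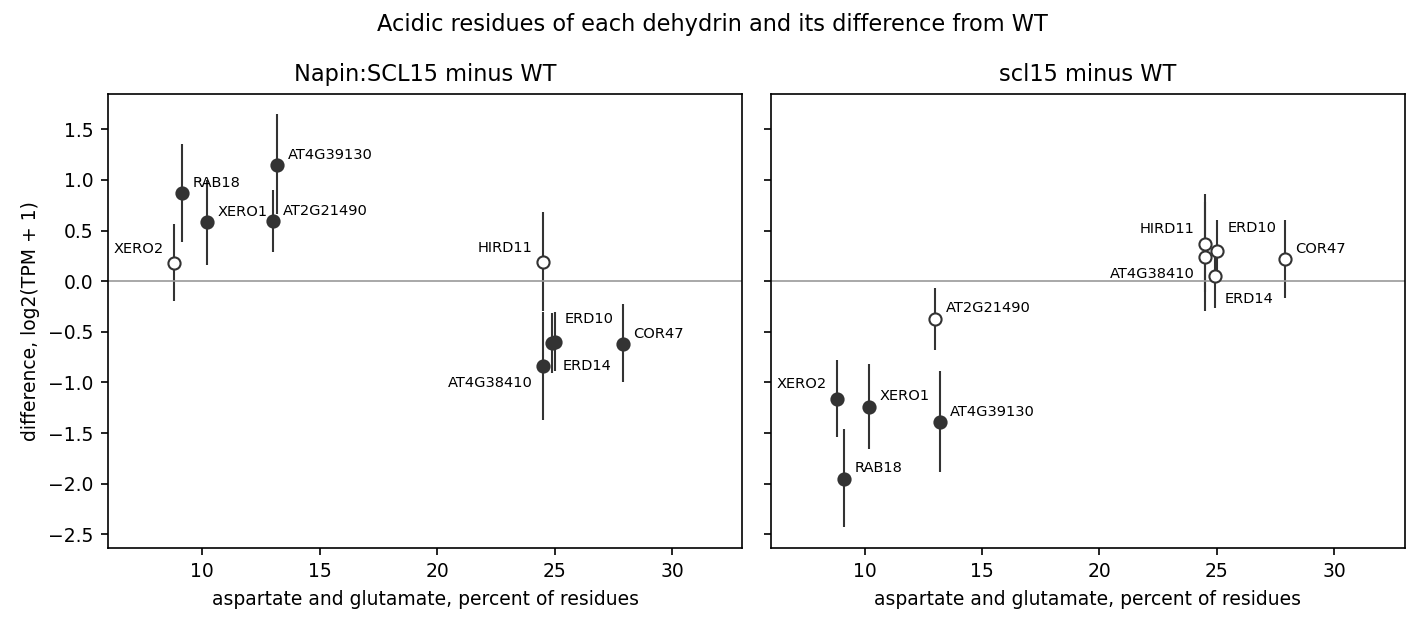
Difference from WT on the log2(TPM + 1) scale, with its 95% interval, against the share of aspartate and glutamate in each predicted dehydrin; filled symbols have an adjusted p below 0.05. The 5 genes at 8.81% to 13.2% lie at or above 0.18 in Napin:SCL15 minus WT, and the 4 filled symbols on the right lie between -0.84 and -0.60.

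Other genes of seed maturation and of ABA, cold and drought responses were followed as lists. Among all tested genes 1.68% were called higher and 23.4% lower in Napin:SCL15, and 9.18% higher and 6.31% lower in scl15. Of 15 non-dehydrin LEA genes, 7 rose and 1 fell in Napin:SCL15 (median log2 difference 0.61) and 12 fell in scl15 with none rising (median -1.72), and 0 were higher there at an unadjusted p under 0.05. With median-ratio scaling 11 rose and 0 fell in Napin:SCL15, and 13 fell in scl15. EM6, an embryo LEA protein gene, averaged 856 ± 98.4 TPM in Napin:SCL15, 17.7 ± 5.89 TPM in scl15 and 402 ± 88.3 TPM in WT (SD, n = 3 each), and the LEA gene M10 averaged 131 ± 14.5 TPM in Napin:SCL15, 6.66 ± 5.68 TPM in scl15 and 106 ± 24.7 TPM in WT. The scl15 log2 differences of EM6 (-4.45) and M10 (-4.03) were larger in size than the -1.95 of RAB18. In Napin:SCL15 the LEA genes AT4G36600 (1.43) and AT3G53040 (1.19) changed most, beside 1.15 for AT4G39130.

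Among 12 ABA regulators, 2 rose and 3 fell in Napin:SCL15 and 1 fell in scl15, against 2 rising and 0 falling in Napin:SCL15 with median-ratio scaling. The share falling in Napin:SCL15 was near the 23.4% of all tested genes, of which 1.68% rose. In scl15 9.18% of all genes rose and 6.31% fell. The list's median log2 difference was -0.27 in Napin:SCL15, against -0.28 over all genes, and 0.02 in scl15, against 0.10. ABI5, the bZIP factor that activates LEA genes in seeds, averaged 40.4 ± 4.77 TPM in Napin:SCL15, 5.39 ± 1.48 TPM in scl15 and 22.7 ± 4.23 TPM in WT (SD, n = 3 each). Its log2 difference from WT was 0.81 in Napin:SCL15 (SE 0.18, adjusted p = 0.00686) and -1.91 in scl15 (SE 0.18, adjusted p = 1.0e-05), beside 0.87 and -1.95 for RAB18. The other regulator that rose in Napin:SCL15 was ABI3 (0.63, adjusted p = 0.00503), at 0.96 with median-ratio scaling (adjusted p = 0.00116). In scl15 ABI3 had 0.09 (adjusted p = 0.726). The protein kinase gene SNRK2.6, which acts in ABA signalling, fell in Napin:SCL15 (-0.64, adjusted p = 0.0084), a call that ended with median-ratio scaling (-0.35, adjusted p = 0.151). Of 9 cold and drought regulators, CBF1, CBF2, CBF3 and CBF4 had means under 1 TPM over all libraries and were not tested. CBF1 averaged 0 TPM in Napin:SCL15, 1.16 TPM in scl15 and 0.192 TPM in WT. CBF2 averaged 0, 1.34 and 0.286 TPM in the same order. For both, every scl15 library was above every WT library, while CBF3 and CBF4 overlapped between scl15 and WT. Of the 5 regulators tested, none was past the threshold in Napin:SCL15 in limma. At an unadjusted p under 0.05 there were 0, and 1 with median-ratio scaling. SCRM2 (0.74) and DREB2A (0.63) rose in scl15. With that scaling SCRM2 had 0.65 (adjusted p = 0.0813).

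Of 10 other cold and dehydration response genes, 9 were tested, with 1 rising and 3 falling in Napin:SCL15 and 2 rising and 3 falling in scl15. The shares over all tested genes were 1.68% rising and 23.4% falling in Napin:SCL15, and 9.18% rising and 6.31% falling in scl15. RD29B, an ABA-responsive gene, fell by 1.57 on the log2 scale in scl15 (adjusted p = 3.9e-05). KIN1, a cold-induced gene with a near-identical copy KIN2 that makes the split of reads between them uncertain, rose by 1.39 there (adjusted p = 9.1e-06). In Napin:SCL15 RD29B rose by 0.79 (adjusted p = 0.00648). There RD22 (-1.35, adjusted p = 1.0e-04) and GOLS3 (-0.87, adjusted p = 0.017) fell in deposited TPM. GOLS3 stood near the filter, at 0.516 ± 0.268 TPM in Napin:SCL15 and 1.78 ± 0.597 TPM in WT. With median-ratio scaling RD29B had 1.12 (adjusted p = 0.00217), RD22 -1.03 (adjusted p = 9.3e-04) and GOLS3, no longer past the threshold, -0.73 (adjusted p = 0.0788).

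Patterns over the 9 libraries were compared by the root-mean-square difference between mean-centred log2(TPM + 1) values. The candidates were 10573 genes outside the family with a mean of at least 5 TPM. Nearest to RAB18 among them was AT1G16850 (0.07). ABI5 came next at 0.10, followed by the LEA domain gene AT1G72100 (0.11), the NAD(P)-binding family gene AT1G54870 (0.11) and AT4G25580, described as a CAP160 protein (0.12). The nearest dehydrin to RAB18 was AT4G39130, at 0.23. AT4G39130 itself lay nearest to the xyloglucan endotransglucosylase gene XTH25 (0.13). The gene nearest to XERO1 was SSL9 (0.13), followed by HVA22B (0.16), and that nearest to XERO2 was AT3G58720 (0.14). Among dehydrins alone XERO1 lay nearest to AT4G39130 (0.33) and XERO2 to AT2G21490 (0.34), so the tandem neighbours were not each other's nearest there. AT2G21490 lay nearest to the 1-cysteine peroxiredoxin gene AT1G48130 (0.08), and the cupin gene AT2G28490 was the fifth (0.11). ERD14 lay nearest to CP12-1, a regulator of the Calvin cycle (0.05), ERD10 to the sulfiredoxin gene SRX (0.07) and COR47 to the glyoxalase family gene AT1G08110 (0.09). AT4G38410 lay nearest to AT3G06390 (0.10), and HIRD11 to the ribosomal protein gene RPS30C_3 (0.13).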

How the data were processed

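The deposited table gives TPM per gene for 9 libraries, made by the authors, per the file headers. Stranded mRNA libraries were made from silique RNA, per the labels' protocols, and TAIR 10 was the genome build per the submitters' processing notes. Any aligner, counter and use of strand were not given in the sources used here. TPM keep no read numbers, so the depth behind each value is unknown, and precision rests on the 3 libraries per group. Each library had 19679 to 21855 genes with a TPM above 0.

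Values were tested as log2(TPM + 1), a scale that understates changes of low genes, with limma 3.58.1 in R 4.3.3, an abundance trend in the prior variance and all 9 libraries in 1 fit. The tested genes averaged 1 TPM or more over all libraries, and a gene was called at a Benjamini-Hochberg adjusted p of 0.05 over all of them. Errors of differences are standard errors (SE). The p-values set a difference against the spread between libraries within groups, moderated by a prior drawn from all tested genes. Levels are means ± SD. Upstream and coding sequences were read from TAIR10.1, whose nuclear chromosomes were taken to be those of the named build, with Biopython 1.88. Figures were drawn with matplotlib 3.10.9. The members and all lists were chosen with earlier results of these data known. All 10 members were named, and of each other list up to 2 called genes of largest size per comparison with WT, with ABI3 added. Replicate numbers are shared between groups, and the labels do not say what a number stands for. Deviations from group means of same-numbered libraries correlated at 0.127 to 0.179 between Napin:SCL15 and WT, over 0.1 in all 3 pairs. Between Napin:SCL15 and scl15 (0.0743 to 0.161) and between scl15 and WT (-0.0605 to 0.35) 1 pair each was not over 0.1, so a pairing was not established there. The fit has no replicate block.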

Additional observations from a re-analysis of the deposited data

How the results depend on the processing

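Of 30 dehydrin results, 12 were past the threshold in every setting they could be fitted in. These were the 4 falls in scl15, the rise of AT4G39130 in Napin:SCL15, and 7 differences between the lines. AT4G38410 could not be fitted with the filter at 5 TPM. Without the filter on low values, 2 dehydrins were higher and 2 lower in Napin:SCL15 than in WT. With median-ratio scaling, quantile normalization or rescaling without storage protein genes, 0 were lower there. Between the lines, 2 were lower with median-ratio scaling and 2 with quantile normalization. Leaving out 1 library at a time gave 2 to 4 higher and 2 to 4 lower dehydrins in Napin:SCL15 against WT. Sign changes occurred in ERD14 in scl15, at -0.06 with median-ratio scaling and -0.00035 with quantile normalization, and in HIRD11. HIRD11 against WT in Napin:SCL15 ran from -0.09 to 0.35 with 1 library left out, was -0.02 without WT replicate 1, and was -0.09 without scl15 replicate 3 and Napin:SCL15 replicate 3. Between the lines it was 0.26 with median-ratio scaling, 0.07 with quantile normalization and 0.05 with the rescaling. The cause was not tested, other than by the scalings' own construction.

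Over all genes, median-ratio scaling gave 991 higher in scl15. In Napin:SCL15 against WT it gave 539 higher and 594 lower, quantile normalization 543 and 577, and the rescaling 429 and 925. Between the lines median-ratio scaling gave 2204 higher and 2399 lower, quantile normalization 2207 and 2442, and the rescaling 4111 lower. With 1 library left out, genes higher in scl15 ran from 875 to 1705, and in Napin:SCL15 from 142 to 298 higher and 2010 to 4104 lower, with 4385 lower when replicate 3 of both scl15 and Napin:SCL15 was left out. As a hint from the data, 8 of 9 libraries correlated best with their own replicate number. The replicate block changed no dehydrin call in Napin:SCL15 against WT or between the lines. With the replicate block, 0 dehydrins were higher and 5 lower in scl15, the fifth being AT2G21490 (-0.37, adjusted p = 0.0258), 4 and 4 in Napin:SCL15, and 5 and 4 between the lines. All genes called with the block were 2136 higher and 1306 lower in scl15, and 352 and 4929 in Napin:SCL15. Depth limits cannot be set from TPM.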
